A study of Mus musculus with 23 samples.

Results

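Chemokines are small secreted proteins, and their receptors are cell-surface proteins coupled to G proteins. The 51 genes described here are those whose symbols begin with Ccl or Cxcl and a number, the fractalkine pair Cx3cl1 and Cx3cr1, and the numbered CC and CXC receptors with Xcr1. They were taken from 20145 mouse genes that had at least 1 array probe with a symbol, and the probe with the highest mean was used for each gene. Of these 51 genes, 33 encode ligands and 18 encode receptors. A log2 intensity of 6.5 or more on at least 1 array was required for testing, and 31 of them, 21 ligands and 10 receptors, reached it, among 15202 genes tested.

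Chemokines guide cells along concentration gradients, and most bind more than 1 receptor. In blood formation, CXCL12 and its receptor CXCR4 keep stem and progenitor cells in their niche, CCR2 draws monocytes from the marrow towards CCL2 and CCL7, CXCR2 moves neutrophils towards CXCL1 and CXCL5, and endothelial cells carry CX3CL1 as a membrane-bound ligand for CX3CR1 on monocytes. CCL3, CCL4, CCL6 and CCL9 are made largely by myeloid cells, and several of them act through CCR1.

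The arrays came from mouse embryonic stem cells (strain given as C57BL/6) differentiated to blood in culture. All groups carried the same transgene, a doxycycline (Dox)-inducible human RUNX1-ETO, the fusion protein of t(8;21) acute myeloid leukaemia, under a tetracycline-responsive promoter in 1 targeted line with wild-type Runx1, so that groups differed in stage and in Dox. The sorted stages were haemogenic endothelium (HE, KIT+ Tie2+ CD41-), the HE2 cells that gain CD41 in the endothelial-haematopoietic transition (KIT+ Tie2+ CD41+) and progenitors (KIT+ Tie2- CD41+), with Dox added the day before sorting. Myeloid progenitors were progenitors cultured in myeloid cytokine medium, with Dox given overnight. The paper describes the induced sorted progenitors as cells that were at the HE stage when RUNX1-ETO was induced. Stage thus goes together with when Dox was given, and their parts in a difference between stages cannot be told apart. HE, HE2 and myeloid progenitors had 3 arrays without and 3 with Dox, and progenitors had 2 and 2, plus 1 uninduced array titled a technical replicate that was left out of the fit. The third induced myeloid array is biological by its title and technical by its source label. It was kept, and the number of these genes called with Dox in myeloid progenitors was 7 with it and 7 without it. Dox on cells without the transgene was not analysed here, and any effect of Dox itself cannot be told apart from that of RUNX1-ETO.

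Between 48.8% and 78.4% of spots per array were well above background, and 0 spots were saturated. The probe of Runx1t1, the mouse counterpart of the ETO part of the fusion, gave 10.56, 11.14 and 10.72 in HE without Dox and 11.90, 12.44 and 11.81 with Dox, and in the other stages too every induced array was above every uninduced one. Of the sorted markers, Itga2b (CD41) lay between 9.49 and 11.46 in uninduced HE, a range that overlapped the 11.19 to 12.51 of uninduced HE2 although HE was sorted as CD41-. Tek (Tie2) was lowest in uninduced progenitors, at 8.63 and 8.71. All HE and HE2 arrays lay on slides 1 and 2, all myeloid arrays on slide 3, and the second induced progenitor array lay on slide 3 apart from the other 3 progenitor arrays fitted. In bulk samples such as these, fewer cells of a type and less RNA per cell cannot be told apart. Precision is limited by how few arrays each group had.

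The 5 genes with the largest called changes with Dox, Ccl9, Cx3cl1, Ccl17, Ccl6 and Ccl3, lie in 2 runs of neighbours in the RefSeq gene order. Cx3cl1 and Ccl17 are adjacent on chromosome 8, with Ccl22 on the other side of Cx3cl1, and Ccl5, Ccl9, Ccl6, Ccl3 and Ccl4 follow each other on chromosome 11 with no other protein-coding gene between them. RefSeq promoter sequences (GRCm38.p6) were at hand for 10 of the 14 genes that passed the test in a Dox comparison, and the 250 bases before the start are shown for 6: the chromosome 8 pair, 3 of the chromosome 11 run, and Cxcl1, which rose. Both strands were searched for TGTGGT (RUNX), TTGCNNAA (C/EBP), AGGAAGT (ETS) and the NF-kB consensus, and capitals mark the matches. The coordinates are chr8:94771930-94772179 (+) for Cx3cl1, chr8:94810203-94810452 (+) for Ccl17, chr11:83578637-83578886 (-) for Ccl9, chr11:83593088-83593337 (-) for Ccl6, chr11:83649379-83649628 (-) for Ccl3 and chr5:90890995-90891244 (+) for Cxcl1.
Cx3cl1: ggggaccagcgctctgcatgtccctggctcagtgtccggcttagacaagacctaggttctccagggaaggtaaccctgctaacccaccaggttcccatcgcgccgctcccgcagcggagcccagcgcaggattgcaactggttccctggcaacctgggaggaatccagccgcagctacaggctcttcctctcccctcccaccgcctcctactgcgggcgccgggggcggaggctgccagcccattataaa
Ccl17: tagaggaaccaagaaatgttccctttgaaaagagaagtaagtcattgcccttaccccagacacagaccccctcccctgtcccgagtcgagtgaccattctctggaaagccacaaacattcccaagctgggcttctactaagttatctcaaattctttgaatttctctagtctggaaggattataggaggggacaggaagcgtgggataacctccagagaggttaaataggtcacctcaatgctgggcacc
Ccl9: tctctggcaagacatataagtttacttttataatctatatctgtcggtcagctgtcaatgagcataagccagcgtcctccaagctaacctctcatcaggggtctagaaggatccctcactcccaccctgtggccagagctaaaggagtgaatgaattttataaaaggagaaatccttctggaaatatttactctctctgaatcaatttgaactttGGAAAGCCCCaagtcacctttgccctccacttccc
Ccl6: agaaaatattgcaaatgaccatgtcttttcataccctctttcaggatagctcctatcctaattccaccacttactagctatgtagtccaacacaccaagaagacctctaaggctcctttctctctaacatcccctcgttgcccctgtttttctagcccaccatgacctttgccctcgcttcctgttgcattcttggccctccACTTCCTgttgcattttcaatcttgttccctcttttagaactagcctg
Ccl3: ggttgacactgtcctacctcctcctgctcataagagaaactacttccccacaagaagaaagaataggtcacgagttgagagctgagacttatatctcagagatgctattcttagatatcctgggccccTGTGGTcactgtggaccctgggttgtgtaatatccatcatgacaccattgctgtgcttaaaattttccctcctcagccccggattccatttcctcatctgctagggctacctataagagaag
Cxcl1: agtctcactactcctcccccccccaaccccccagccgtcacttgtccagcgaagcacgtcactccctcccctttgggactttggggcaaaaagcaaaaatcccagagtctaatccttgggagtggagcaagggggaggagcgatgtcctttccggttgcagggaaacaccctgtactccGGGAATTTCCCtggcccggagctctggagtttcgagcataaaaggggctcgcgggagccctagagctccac
Cx3cl1 and Ccl17 had no match in this window. Ccl3 held 1 RUNX match that begins 122 bases before the start, and Ccl6 held 1 ETS match on the opposite strand, 48 bases before it. Ccl9 held 1 NF-kB match on the opposite strand, beginning 35 bases before the start, and Cxcl1 held an NF-kB match that reads on both strands with 1 base of offset, beginning 71 and 70 bases before the start. Among 32851 mouse promoters cut to the same length, 14% held the RUNX letters, 9.56% the C/EBP letters, 7.69% the ETS letters and 7.25% the NF-kB consensus. A match is only a stretch of letters, and no binding data were used here.

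A gene was called changed where the limma fit gave a 2-fold or larger change with an unadjusted P no higher than 0.001. With Dox, 2 of the 31 genes were called in HE, both lower, where 7.09% of all genes tested were called, 4.7% higher and 2.39% lower. In HE2, 10 were called, 2 higher and 8 lower, or 32.3% of the 31 against 7.22% of all genes, 5.17% higher and 2.05% lower. In progenitors 4 were called, all lower, where 3.73% of all genes were, 3.03% higher and 0.704% lower. In myeloid progenitors 7 were called, 1 higher and 6 lower, or 22.6% against 6.31%, of which 5.13% were higher and 1.18% lower. When intensities were scaled to the 75th percentile instead, the split there was 2 higher and 3 lower. The count in myeloid progenitors was 4 without the first uninduced array and 4 without the first induced array. Among all genes, lower calls were thus the rarer kind in every stage. The median change of the 31 was 0.02 on the log2 scale in HE, beside -0.01 for all genes. It was -0.45 beside -0.03 in HE2, -0.54 beside -0.04 in progenitors and -0.04 beside -0.02 in myeloid progenitors. Altogether 14 of the 31 genes were called in at least 1 Dox comparison, where 14.5% of all genes were, and 1 of them, Cx3cl1, in all 4. Induced and uninduced arrays without overlap were common among all genes tested. In HE 14.2% lay wholly higher and 11% wholly lower with Dox, and in HE2 17% and 15.2%. The shares were 22.6% and 26.4% in progenitors, with 2 arrays against 2, and 23.9% and 22.7% in myeloid progenitors.

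**Figure D1:**
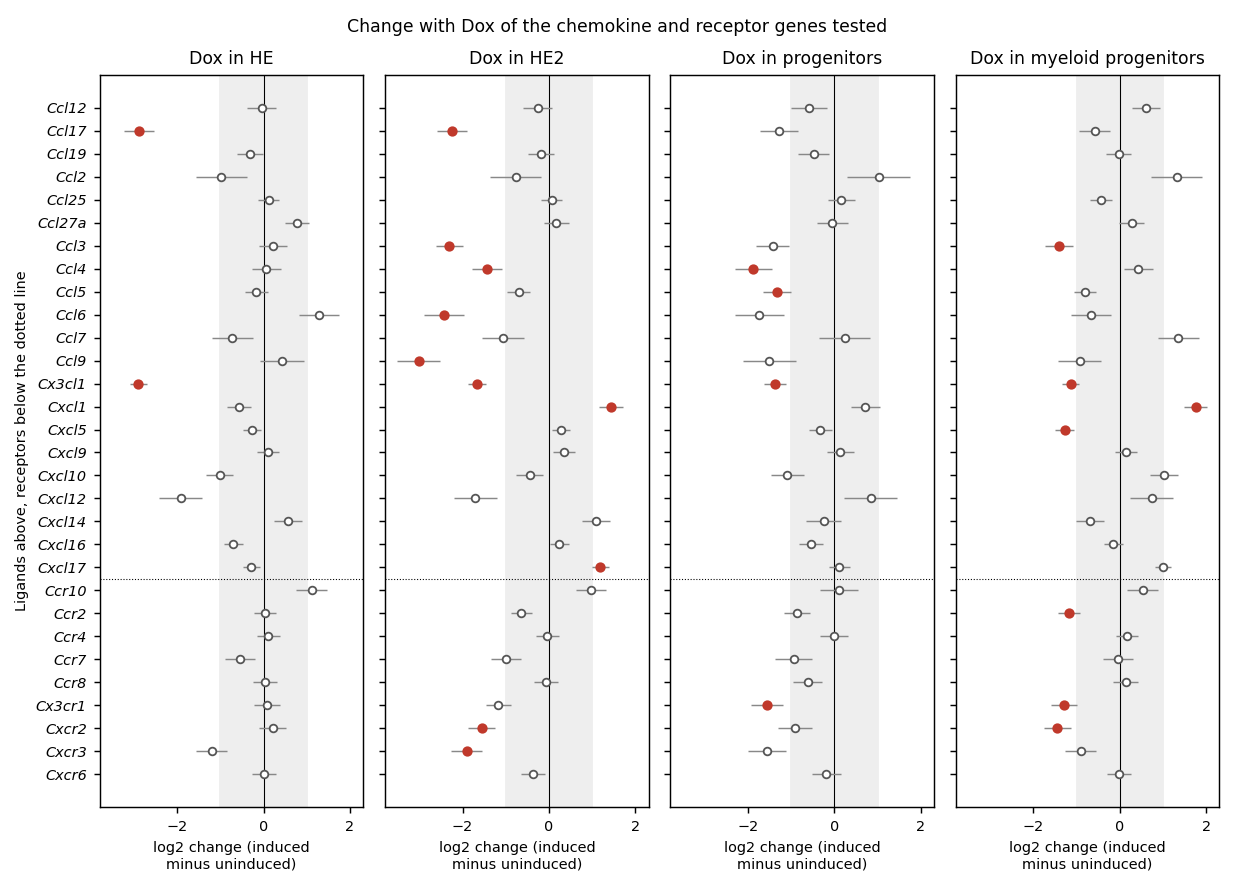
Change with Dox of tested genes in each stage, as log2 change (induced minus uninduced) with its SE from the limma fit; filled red points passed the call rule, open points did not, and the grey band spans changes under 2-fold. Cx3cl1 is red in all 4 panels, and the most red points, 10, are in HE2.

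The membrane-bound endothelial ligand Cx3cl1 fell in every stage. Its log2 intensity in HE was 12.70, 12.88 and 12.56 without Dox and 9.92, 10.09 and 9.42 with Dox. In HE2 it was 12.23, 12.34 and 12.35 without Dox and 10.40, 10.58 and 10.92 with Dox. In progenitors it was 11.98 and 12.16 without Dox and 11.01 and 10.38 with Dox. Uninduced and induced arrays were separate in each of these stages, and again in myeloid progenitors, where the values were 10.24, 10.37 and 10.23 against 8.85, 9.35 and 9.22. The log2 change was -2.90 ± 0.20 (SE) in HE, a 7.47-fold fall, with an adjusted P (limma, Benjamini-Hochberg over all genes) of 4.46e-08. It was -1.67 ± 0.20 in HE2, and the later stages gave -1.37 ± 0.25 (progenitors) and -1.14 ± 0.20 (myeloid progenitors), the last not called without the first induced array. The call in progenitors was lost without the second induced array, with the slide as a block, and with only the groups compared in the fit. The fall in HE was larger than that in HE2 by 1.23 ± 0.29 and than that in myeloid progenitors by 1.76 ± 0.29 on the log2 scale, and both differences met the call rule, the first with an adjusted P of 0.0507. Without Dox, Cx3cl1 fell from progenitors to myeloid progenitors by 1.79 on the log2 scale. The endothelial marker list (Cdh5, Tek, Pecam1, Kdr, Cldn5, Esam) did not fall with it. Its summed level, on the log2 scale, ranged from 16.1 to 16.9 in uninduced and 16.2 to 17 in induced HE, and 5 of its 6 genes rose with Dox in myeloid progenitors, with 0 lower.

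Ccl17, a ligand of CCR4 best known from dendritic cells and the neighbour of Cx3cl1, fell in HE and HE2. Its values in HE were 10.54, 11.39 and 9.85 without Dox and 7.66, 7.92 and 7.56 with Dox. In HE2 they were 10.24, 10.37 and 9.26 without Dox and 7.81, 7.90 and 7.43 with Dox. Induced arrays lay in a narrow band below all uninduced ones in both stages. The log2 change was -2.88 ± 0.35 in HE (adjusted P = 1.78e-05) and -2.24 ± 0.35 in HE2. In progenitors, with 9.52 and 9.10 against 8.29 and 7.77, it was -1.28 ± 0.43, which did not pass, and in myeloid progenitors it was -0.58 ± 0.35. The difference between myeloid progenitors and HE was itself called, at 2.30 ± 0.50. Uninduced myeloid progenitors, at 7.35 to 8.33, were already level with the induced HE arrays. A fall as large as that in HE could not have been fully measured there. For Ccl17 this difference cannot tell a stage-dependent response from a low level in myeloid progenitors. Without Dox, Ccl17 fell from progenitors to myeloid progenitors by 1.61 on the log2 scale. Its receptor Ccr4 stayed between 5.25 and 7.0 over all groups, and changed by 0.11 in HE, -0.04 in HE2 and -0.01 in progenitors with Dox. Ccl22, the other CCR4 ligand, was well above background on 0 of 23 arrays and was not tested.

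**Figure D2:**
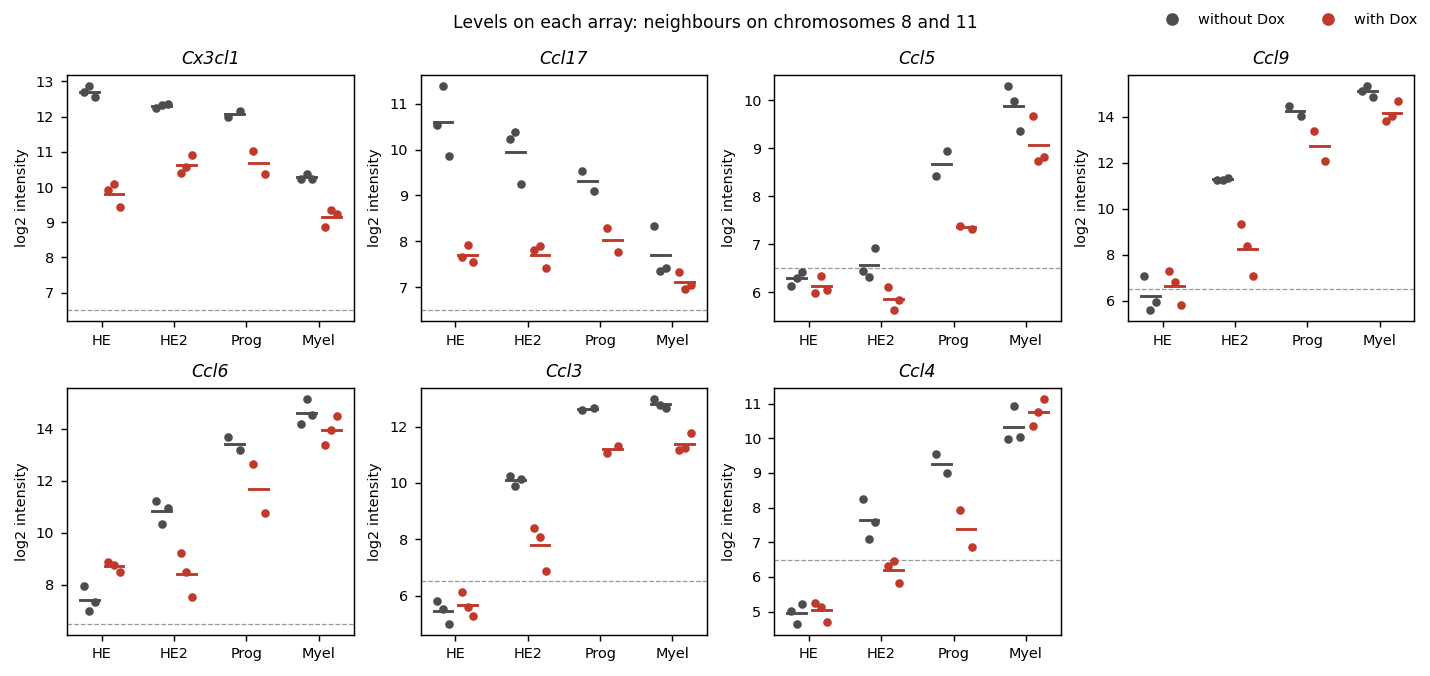
Log2 intensity on each fitted array (points) and group mean (bars) for the neighbours on chromosome 8 (Cx3cl1, Ccl17) and chromosome 11 (Ccl5, Ccl9, Ccl6, Ccl3, Ccl4), by stage, without Dox in grey and with Dox in red; the vertical scales differ, and the dashed line marks 6.5. The chromosome 8 pair starts high in HE and is lower with Dox, while the chromosome 11 genes start low in HE and climb through the stages.

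The chromosome 11 run from Ccl5 to Ccl4 was low in HE. In HE2, 4 of its 5 genes, all but Ccl5, rose without Dox and were lower with Dox. Ccl5 was at a mean of 6.29 in HE and 6.57 in HE2 without Dox. From HE to HE2 without Dox, 7 of the 31 genes rose and 2 fell, where 5.07% of all genes were called, 2.39% higher and 2.67% lower, and 4 of the 7 were Ccl9, Ccl3, Ccl6 and Ccl4. Their log2 changes were 5.08 ± 0.50, 4.65 ± 0.32, 3.41 ± 0.46 and 2.68 ± 0.34. Of the 3 uninduced HE arrays, 2 measured Ccl3 and 1 measured Ccl4 well above background. The uninduced HE2 arrays also serve the Dox comparison in HE2, so each gene's values are set side by side here and are not independent of each other.

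Ccl9, also called MIP-1 gamma, was at 11.24, 11.25 and 11.32 in HE2 without Dox and at 9.33, 8.38 and 7.05 with Dox. Its HE arrays lay between 5.58 and 7.06 without Dox and between 5.80 and 7.26 with Dox. The induced HE2 arrays thus spread widely, and 1 of them lay below the highest induced HE array. The change in HE2 was -3.02 ± 0.50, an 8.09-fold fall (adjusted P = 0.000399), and in HE it was 0.43 ± 0.50. Ccl6, a close relative, was at 11.21, 10.32 and 10.95 in HE2 without Dox and at 9.21, 8.49 and 7.51 with Dox, a change of -2.42 ± 0.46. In HE it leaned the other way, with 7.93, 7.0 and 7.33 without Dox and 8.88, 8.76 and 8.49 with Dox, but the change of 1.29 ± 0.46 did not pass. With Dox, the mean of Ccl6 was 8.71 ± 0.20 (SD, n = 3) in HE and 8.40 ± 0.85 (SD, n = 3) in HE2.

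Ccl3 (MIP-1 alpha) was at 10.25, 9.89 and 10.13 in HE2 without Dox and at 8.40, 8.08 and 6.86 with Dox. Its change there was -2.31 ± 0.32 (adjusted P = 7.4e-05), against 0.22 ± 0.32 in HE. Ccl4 (MIP-1 beta), which lies next to it, was at 8.26, 7.08 and 7.60 without Dox and at 6.31, 6.47 and 5.82 with Dox, a change of -1.44 ± 0.34. The call of Ccl4 was lost in 4 of 6 fits with an array left out, those without array 1 or array 3 of either group, and the change ranged from -1.73 to -1.14. For both genes every induced HE2 array was below every uninduced one. The tests of the difference between the Dox responses in HE2 and HE were called for Ccl6 (-3.72 ± 0.65), Ccl9 (-3.44 ± 0.71) and Ccl3 (-2.52 ± 0.45), each with an adjusted P of at most 0.0246. Uninduced HE was already dim for Ccl3 (5.01 to 5.81) and Ccl9 (5.58 to 7.06). A fall as large as that in HE2 could not have been fully measured there. For these genes the difference cannot tell a stage-dependent response from a low level in HE. For Ccl4 the difference of -1.51 ± 0.49 did not pass. In all, 7 of the 31 genes were called in this difference, where 1.34% of all genes were. Over the 4 differences between stages that were tested, 10 of the 31 were called in at least 1, where 6.31% of all genes were, and 0 of the 31 in that between progenitors and HE2 (limma, with 4 at an unadjusted P under 0.05), where 0.645% were. Within slides 1 and 2 taken apart, each of the 10 genes called in HE2 kept its direction. This had to follow, since the induced and uninduced HE2 arrays of all 10 did not overlap, and it is no separate check on the slides.

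In progenitors these genes were higher still. From HE2 to progenitors without Dox, where 5.39% of all genes were called, 1.78% higher and 3.62% lower, 8 of the 31 genes rose and 3 fell, and all 5 of the run were among the 8. The count was 6 without the first uninduced progenitor array. The log2 changes of the 5 were 2.97 ± 0.56 for Ccl9, 2.60 ± 0.52 for Ccl6, 2.54 ± 0.36 for Ccl3, 2.11 ± 0.30 for Ccl5 and 1.62 ± 0.39 for Ccl4. With Dox in progenitors, Ccl4 went from 9.55 and 8.98 to 7.92 and 6.86, a change of -1.88 ± 0.42. Ccl5 (RANTES), a ligand known from T cells and macrophages, went from 8.41 and 8.94 to 7.39 and 7.32, a change of -1.32 ± 0.32. Both genes passed, with no overlap between the groups, as for 26.4% of all genes in that direction. Ccl6 (-1.74 ± 0.57), Ccl9 (-1.51 ± 0.62) and Ccl3 (-1.43 ± 0.39) did not pass with these 2 arrays against 2. All 4 calls in progenitors were lost without the second induced array, the one on slide 3, and 2 remained without the second uninduced array. Ccl4 was also lost without the first uninduced array, and Ccl5 without the first induced one. On slide 1 the other 2 arrays differed by -1.63 for Ccl4 and -1.02 for Ccl5.

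In myeloid progenitors Ccl3 passed again, from 12.98, 12.76 and 12.65 without Dox to 11.15, 11.26 and 11.77 with Dox, a change of -1.40 ± 0.32 (adjusted P = 0.00555). Its call was lost in 4 of 6 fits with an array left out, those without the first or second array of either group. Ccl4, its neighbour, was at 9.98, 10.94 and 10.03 without Dox and at 10.35, 10.77 and 11.13 with Dox, with overlapping groups and a change of 0.43 ± 0.34. The Dox response of Ccl4 in myeloid progenitors differed from that in progenitors by 2.31 ± 0.54 (adjusted P = 0.0437), and for Ccl3 the same difference was 0.03 ± 0.50. Ccl5 (-0.81 ± 0.26), Ccl9 (-0.93 ± 0.50) and Ccl6 (-0.67 ± 0.46) did not pass. Ccl5 rose from progenitors to myeloid progenitors without Dox by 1.20 on the log2 scale. Ccr1, a receptor for several of these ligands, was well above background on 2 of 23 arrays and was not tested.

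Marker genes of other cell types also differed with Dox, in lists that include genes not called. Of 5 tested genes of the neutrophil-lineage list (Mpo, Elane, Prtn3, Ltf, Camp, Ngp), Mpo and Ltf were lower in HE2, Prtn3 was lower in progenitors, and 0 were called in HE or in myeloid progenitors. Its summed level on the log2 scale was 13 to 13.8 in uninduced and 11.7 to 12.2 in induced HE2, 14.9 to 15.3 and 14.1 to 14.5 in progenitors, and, with overlap, 12.9 to 14 and 12.1 to 13.1 in myeloid progenitors. Of 5 tested genes of the macrophage list Mrc1 was higher in all 4 stages and Csf1r lower in HE2. The macrophage sum was higher with Dox in HE, at 11.5 to 11.9 against 12.2 to 12.9, and in HE2, at 11.4 to 11.8 against 12.3 to 13.5, and lower in progenitors, at 12.1 to 12.3 against 11.4 to 11.7. Such sums add intensities, so the brightest genes weigh most. The median log2 change of the 5 tested macrophage genes was below 0 in these stages, at -0.19 in HE, -0.27 in HE2 and -0.33 in progenitors. Of 5 tested genes of the mast-cell list Hdc was higher in all 4 stages and Cpa3 in 3 of them, all but HE2. The mast-cell sum was 9.87 to 10.4 in uninduced and 14.3 to 14.8 in induced HE, and its induced arrays lay above all uninduced ones in the other 3 stages too. Of its defining markers, Fcer1a was not above background in any induced group, and Cma1 only in induced myeloid progenitors. The endothelial sum was 15.3 to 15.6 in uninduced and 16.5 to 16.8 in induced HE2, with Cldn5 and Esam higher. The erythroid list had Hbb-bh1 higher in HE, HE2 and progenitors, and its sum was 14.8 to 15.3 against 17.2 to 18.2 in HE and 16.2 to 16.6 against 18.2 to 18.5 in HE2. In HE the median log2 change was 0.02 for the erythroid list and 0.19 for the tested mast-cell genes. The part of these cell types in the chemokine changes was not tested.

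**Figure D3:**
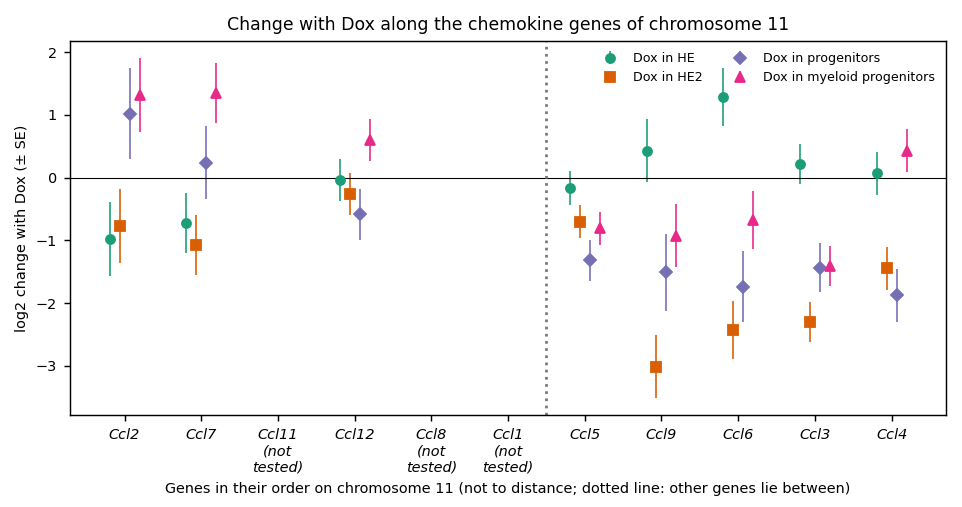
Log2 change with Dox (induced minus uninduced, with SE) of the chemokine genes of chromosome 11 in their order along it, in the 4 stages; genes left blank did not reach the intensity floor. Right of the dotted line, the Ccl5 to Ccl4 run lies below 0 in HE2 and progenitors, and left of it, Ccl2 lies below 0 in HE and HE2 and above it in progenitors and myeloid progenitors.

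The other chemokine run of chromosome 11, which 25 protein-coding genes separate from Ccl5, holds the CCR2 ligands Ccl2, Ccl7 and Ccl12. None of them was called with Dox. Ccl2 (MCP-1) ranged from 9.87 to 11.55 in uninduced and 8.90 to 10.57 in induced HE, and from 8.10 to 9.97 in uninduced and 9.95 to 10.63 in induced myeloid progenitors. With Dox it changed by -0.98 ± 0.59 in HE and -0.77 ± 0.59 in HE2, and by 1.02 ± 0.72 and 1.32 ± 0.59 at the later stages, progenitors and myeloid progenitors. Those of Ccl7 (MCP-3) were -0.72 ± 0.48 in HE, -1.07 ± 0.48 in HE2 and 1.35 ± 0.48 in myeloid progenitors, where 1 of 3 uninduced arrays measured it well above background, and in progenitors no array did. Ccl2 did change with stage without Dox: it fell by 3.01 on the log2 scale from HE2 to progenitors and rose by 2.96 ± 0.66 from progenitors to myeloid progenitors. In Ccl12 the Dox changes lay between -0.59 and 0.61.

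Cxcl1, a CXCR2 ligand induced by NF-kB, rose with Dox in HE2 and in myeloid progenitors. In HE2 its values were 7.33, 7.98 and 7.47 without Dox and 8.55, 9.32 and 9.23 with Dox. In myeloid progenitors they were 4.86, 5.91 and 5.47 without Dox and 7.16, 7.15 and 7.19 with Dox. Induced arrays were above all uninduced ones in both stages, and in myeloid progenitors 1 of the 3 uninduced arrays measured it well above background. The changes were 1.44 ± 0.27 in HE2 (adjusted P = 0.00118) and 1.76 ± 0.27 in myeloid progenitors (adjusted P = 0.000191). In HE, where it was highest without Dox (8.86, 9.06 and 8.91 against 8.11, 8.91 and 8.10), the change was -0.57 ± 0.27. The response in HE2 differed from that in HE by 2.01 ± 0.39 and that in myeloid progenitors by 2.32 ± 0.39, and both differences were called. Without Dox, Cxcl1 fell from HE to HE2 by 1.35 and from HE2 to progenitors, where 1 of 2 arrays measured it well above background, it fell by 2.44 on the log2 scale. In progenitors it was 5.34 and 4.95 against 5.82 and 5.91, a change of 0.72 ± 0.33.

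Cxcr2, its receptor, moved in the opposite direction in the same 2 stages. It was at 7.33, 6.87 and 8.07 in HE2 without Dox and at 5.60, 6.29 and 5.71 with Dox. In myeloid progenitors it was at 8.75, 8.0 and 7.87 without Dox and at 6.89, 6.78 and 6.60 with Dox. The groups did not overlap in either stage, and the changes were -1.55 ± 0.31 (adjusted P = 0.00196) and -1.45 ± 0.31 (adjusted P = 0.00389). The call in HE2 was lost without the third uninduced array, and that in myeloid progenitors without the first uninduced or the third induced array. In progenitors, with 8.98 and 9.48 against 8.86 and 7.76, the change was -0.91 ± 0.38. Without Dox, Cxcr2 rose from HE, where 1 of 3 arrays measured it well above background, to HE2 by 2.13 ± 0.31 and from HE2 to progenitors by 1.81 ± 0.35. Cxcr1, the other receptor of this kind, was well above background on 2 of 23 arrays.

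Among the other CXC ligands, Cxcl17 rose in HE2 as Cxcl1 did, and Cxcl5 fell in myeloid progenitors. Cxcl5, also a CXCR2 ligand, was well above background in myeloid progenitors, at 7.20, 7.84 and 8.22 without Dox and 6.40, 6.27 and 6.75 with Dox, and it fell by 1.28 on the log2 scale. It had risen from progenitors, where 1 of 2 uninduced arrays measured it well above background, to myeloid progenitors without Dox by 2.52 ± 0.24. Cxcl2 and Cxcl3, neighbours of Cxcl1 on chromosome 5, did not reach the floor. Cxcl17, a mucosal chemokine, lay between 5.67 and 5.85 in uninduced and between 6.53 and 7.53 in induced HE2, a change of 1.19 ± 0.19 whose call was lost without the third induced array. In myeloid progenitors no uninduced array measured it well above background, and it was at least 1.79-fold higher with Dox (adjusted P = 0.00155 from the limma fit), without meeting the call rule. Its response, like that of Cxcl1, differed from that in HE by a called amount in HE2 (1.48 ± 0.27). Cxcl10, the interferon-induced CXCR3 ligand, was called in no Dox comparison, but its responses differed between stages: the change was 1.02 ± 0.32 in myeloid progenitors, -1.02 ± 0.32 in HE and -1.09 ± 0.39 in progenitors. The differences of 2.04 ± 0.45 from HE and 2.11 ± 0.50 from progenitors were both called, where 4.72% and 1.5% of all genes were. Cxcl14 rose from progenitors to myeloid progenitors without Dox, at least 3.42-fold since no progenitor array measured it well above background. In HE2, where no uninduced array measured it, it was at least 2.08-fold higher with Dox, which did not pass (adjusted P = 0.0284 from limma).

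**Figure D4:**
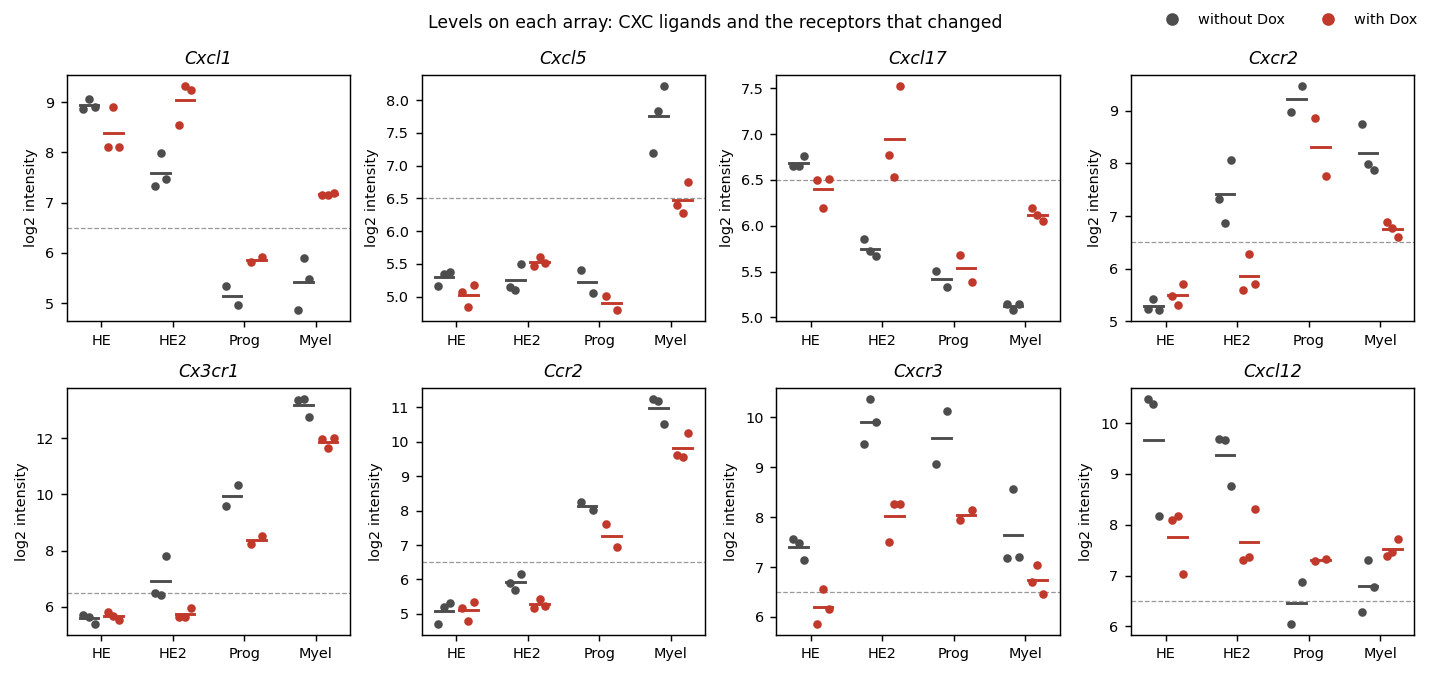
Log2 intensity on each fitted array (points) and group mean (bars) of CXC ligands and of receptors that changed, by stage, without Dox in grey and with Dox in red; the vertical scales differ, and the dashed line marks 6.5. In HE2 and myeloid progenitors the red points of Cxcl1 lie above the grey and those of Cxcr2 below.

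No receptor was called higher with Dox in any stage, and 4 of the 10 tested were called lower in at least 1, where 4.55% of all genes were. Besides Cxcr2 these were Cx3cr1, Ccr2 and Cxcr3. Cx3cr1, which marks monocytes and binds CX3CL1, was at 9.58 and 10.32 in progenitors without Dox and at 8.25 and 8.52 with Dox. In myeloid progenitors it was at 13.37, 13.40 and 12.75 without Dox and at 11.97, 11.65 and 12.02 with Dox. The groups were separate in both stages. Its changes were -1.57 ± 0.37 and -1.30 ± 0.30, the first of them lost in 3 of 4 and the second in 4 of 6 fits with an array left out, and that in HE2, -1.17 ± 0.30, narrowly missed the call with an unadjusted P of 0.00104 (limma). A dimmer Cx3cr1 probe, above background on 11 of 23 arrays, changed by -1.31 ± 0.51 and -1.38 ± 0.42, which did not pass. Receptor and ligand thus both fell in progenitors and in myeloid progenitors. Without Dox, Cx3cr1 rose at every step, by 1.32 ± 0.30, 3.04 ± 0.33 and 3.22 ± 0.33.

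Ccr2, the monocyte receptor for CCL2, rose without Dox from HE2 to progenitors by 2.22 ± 0.28 and on to myeloid progenitors by 2.85 ± 0.28. There it ranged from 10.50 to 11.24 without Dox and from 9.56 to 10.25 with Dox, and it fell by 1.17 on the log2 scale, a call lost in 4 of 6 fits with an array left out. For Ccr2 and Cx3cr1 these were the fits without the first or second array of either myeloid group. Cxcr3, the receptor for CXCL9 and CXCL10, peaked in HE2, at 9.47, 10.37 and 9.90 without Dox against 7.50, 8.27 and 8.27 with Dox. Its change there was -1.90 ± 0.36 (adjusted P = 0.00116), with no overlap. In HE (-1.20 ± 0.36), progenitors (-1.55 ± 0.44) and myeloid progenitors (-0.91 ± 0.36) it did not pass. Without Dox, Cxcr3 rose from HE to HE2 by 2.52 ± 0.36 and fell from progenitors to myeloid progenitors by 1.95 on the log2 scale. Its ligand Cxcl9 had Dox changes of 0.10 to 0.35.

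Between progenitors and myeloid progenitors without Dox, where 13.9% of all genes were called, 7% higher and 6.93% lower, 7 of the 31 genes rose (among them Cx3cr1, Ccl2, Ccr2, Cxcl5, Cxcl14 and Ccl5) and 4 fell (Cxcr3, Cx3cl1, Ccl17, Ccr8). All myeloid arrays lay on slide 3, and with the slide as a block 3 of the 31 were called. The count was 6 without the second uninduced myeloid array, 6 without the first uninduced progenitor array and 7 without the second.

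The receptors described next were not called with Dox and were dim. Over all groups fitted, Ccr4 ranged from 5.25 to 7.0, Ccr7 from 5.51 to 7.88, Ccr8 from 5.58 to 7.52, Ccr10 from 5.38 to 7.96 and Cxcr6 from 5.96 to 7.34. Ccr10, the CCL27 receptor, had the highest change of the receptors, 1.12 ± 0.36 in HE, without passing. Its ligand Ccl27a, which has near-identical copies in the genome that could share its signal, changed by 0.77 ± 0.26 there. Other Ccl27a probes rose in HE too, by 0.82 ± 0.31 and by 1.24 ± 0.21, and only the latter met the call rule. Ccr7, which leads cells to lymph nodes, changed by -1.0 ± 0.35 in HE2, also without passing. Its ligand Ccl19, again a gene with near-identical copies, had changes of -0.48 to -0.03. In progenitors 2 other Ccl19 probes changed by -1.03 and 0.94. Ccr8 fell from progenitors to myeloid progenitors without Dox by 1.26 on the log2 scale. Cxcr6 changed by -0.37 to 0.02 with Dox, and its ligand Cxcl16 fell from HE to HE2 without Dox by 1.27 on the log2 scale. Ccl25 changed by -0.44 to 0.16 with Dox, and its receptor Ccr9 did not reach the floor. In HE2, where this Ccl25 probe changed by 0.06, another Ccl25 probe changed by -1.48 ± 0.61, which did not pass.

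**Figure D5:**
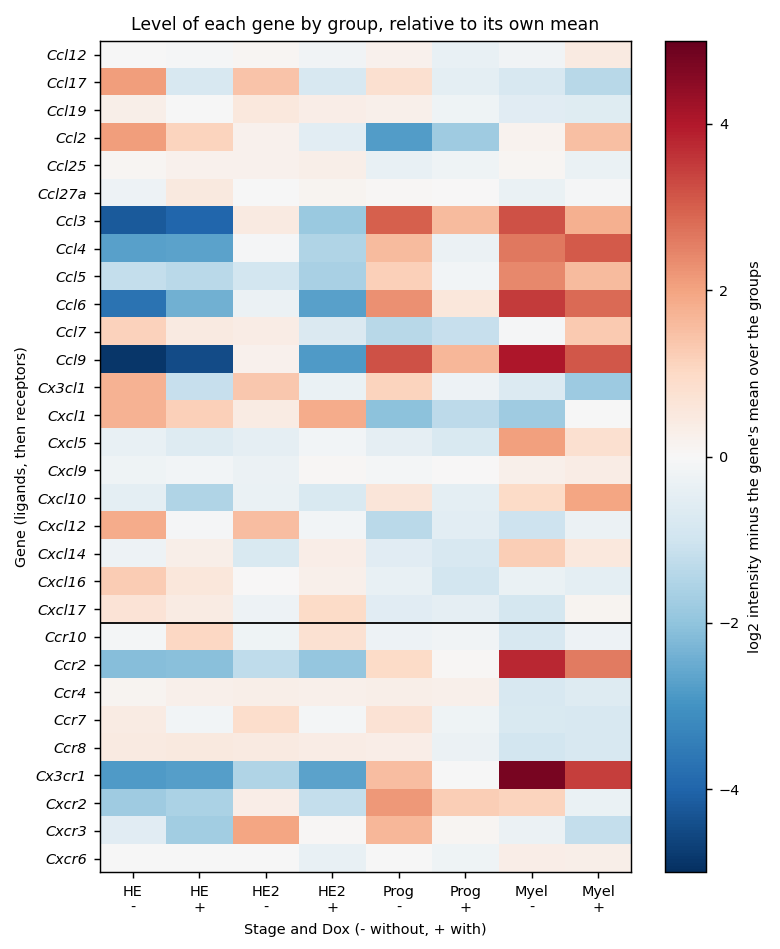
Mean log2 intensity of tested genes in the 8 groups minus each gene's mean over the groups, in colour (red above, blue below), ligands above and receptors below the line. Ccl9, Ccl3, Ccl6 and Cx3cr1 run from blue in HE to red in myeloid progenitors. Without Dox, Ccl17 and Cx3cl1 run the other way, and with Dox both are already blue in HE.

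Cxcl12, the niche factor, was high in uninduced HE and HE2 and did not pass the call rule with Dox. In HE it was at 10.48, 10.39 and 8.17 without Dox and at 8.09, 8.17 and 7.03 with Dox, so that the third uninduced array was level with the induced ones. In HE2 it was at 9.68, 9.67 and 8.76 without Dox and at 7.31, 7.37 and 8.31 with Dox, with a small gap between the groups. The changes were -1.92 ± 0.50 (unadjusted P = 0.00119, adjusted P = 0.0122) and -1.71 ± 0.50 (adjusted P = 0.0235). Within slide 1 the differences were -2.35 in HE and -2.36 in HE2, and within slide 2 they were -0.58 and -0.92. Without the third uninduced HE array the change in HE was -2.67 and passed. A dimmer probe of Cxcl12, above background on 7 of 23 arrays, changed by -1.12 ± 0.20 in HE, which met the call rule (unadjusted P = 2.25e-05 in a limma fit across all probes). In progenitors and myeloid progenitors the changes were 0.84 ± 0.61 and 0.74 ± 0.50. Without Dox, Cxcl12 fell by 2.91 on the log2 scale from HE2 to progenitors. In a list of 6 mesenchymal genes, Col1a1 and Pdgfrb fell with Dox in both HE and HE2, and Col3a1 rose in HE. The sum of the list ranged from 13.3 to 15.2 in uninduced and 13.7 to 13.9 in induced HE, and from 11.8 to 12.9 against 10.66 to 11.7, without overlap, in HE2.

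Cxcr4, the signalling receptor for CXCL12, never exceeded 6.06 and was well above background on 10 of 23 arrays, and it was not tested since it did not reach the floor. Ackr3, which takes up CXCL12 without signalling through G proteins, fell in HE by 1.75 and in HE2 by 1.83 on the log2 scale. Its values in HE were 7.06, 8.56 and 8.0 without Dox and 6.06, 6.47 and 5.85 with Dox. In HE2 they were 7.47, 7.90 and 6.95 without Dox and 5.59, 5.86 and 5.38 with Dox. All induced arrays were below all uninduced ones in both stages.

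Of 69 listed genes that act around the chemokine system under other symbols, 61 were tested. The shares of all genes called are those given above. In HE, 2 or 3.28% were higher (Grk3, a receptor kinase that desensitizes, and Prkcb) and 5 or 8.20% lower (Ackr3, Gng11, Gng2, Irf1, Vav1). In HE2, 7 or 11.5% were higher (Ackr2, Dpp4, Gnai1, Grk3, Plcb3, Prkcb, Tiam1) and 6 or 9.84% lower (among them Ackr3, Ncf1, Pf4, Rgs18 and Vav1). In progenitors 0 were higher and 4 or 6.56% lower (Fgr, Irf1, Ncf1, Pik3r5), and in myeloid progenitors 5 or 8.20% were higher (Ackr1, Gnai1, Plcb3, Relb, Tiam1) and 4 or 6.56% lower (Ncf1, Pf4, Ppbp, Prkcb). Ncf1, a subunit of the phagocyte oxidase, fell in HE2 by 1.97, in progenitors by 1.94 and in myeloid progenitors by 2.16 on the log2 scale. Relb, an NF-kB subunit, rose by 2.16 ± 0.28 in myeloid progenitors, and Irf1, an interferon-response factor, fell in HE by 1.33 on the log2 scale.

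Pf4 and Ppbp, the platelet chemokines CXCL4 and CXCL7, also mark megakaryocytes. Pf4 in myeloid progenitors was at 14.89, 14.43 and 14.64 without Dox and at 12.75, 12.91 and 12.79 with Dox, and in HE2 at 8.90, 9.92 and 10.47 against 7.57, 8.01 and 8.56. Groups were separate in both stages, and Pf4 fell by 1.84 and by 1.72 on the log2 scale. Ppbp fell by 1.72 on the log2 scale in myeloid progenitors. The megakaryocyte list, which holds both, had 4 of its 5 genes lower in myeloid progenitors, with sums of 16.3 to 16.5 without and 15.4 to 15.5 with Dox.

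Of the 51 genes, 20 did not reach the intensity floor. Besides those named above they were Ccl1, Ccl8, Ccl11, Ccl20, Ccl24, Ccl26, Ccl28, Cxcl13, Cxcl15, Ccr3, Ccr6, Cxcr5 and Xcr1. The highest of them on any array was Ccr3, at 6.42. Their absence from the tests says nothing about a change below the floor.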

How the data were processed

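RNA from each sample was labelled with Cy3 and hybridised to 1-colour Agilent mouse 8x60K arrays. Per the file headers, the deposited scanner files hold spot intensity from Agilent Feature Extraction 10.7.3.1, and the labels give 10.7.1.1. The authors also deposited 1 table of log2 values, made with limma by background correction and quantile normalization. Of its 23 columns, 6, numbers 2 and 3 of induced HE, HE2 and myeloid progenitors, matched the scanner file of the other number. The exchange is within groups, and the numbers used here are those of the scanner files.

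Here the median spot intensity was corrected by normexp with an offset of 16, control and outlier spots were left out, and 23 arrays were quantile normalized (R 4.3.3, limma 3.58.1). Array identifiers were matched to RefSeq symbols, the probe with the highest mean was kept per gene, and a log2 intensity of 6.5 on at least 1 array was required. Group means were estimated from 22 arrays by lmFit and eBayes, with 14 residual degrees of freedom, and P values were adjusted by Benjamini-Hochberg over all 15202 genes. Changes are differences of log2 intensity, and marker sums are log2 of summed intensities. Where nothing says that arrays of a group came from separate cultures beyond their titles, P values measure the spread between these samples. The fit was checked on simulated data. Some items are counted but not reported here by name.

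The members and lists were chosen with earlier results of these data known. Genes called in a Dox or stage comparison were named, with values on each array for the 12 with the largest changes with Dox, together with all tested receptors, Cxcl12, Cxcr4, known partners, called pathway genes and 4 genes that check the labels. Same-numbered arrays of uninduced HE and HE2 deviated together (r = 0.394, 0.795 and 0.608). Numbers 1 and 2 of both groups lay on slide 1 and number 3 of both on slide 2. For number 3 a pairing and a shared slide thus cannot be told apart. Same-numbered arrays in the Dox comparisons with 3 arrays deviated together only in part. In HE2, r was 0.361 for number 1. Induced arrays 2 and 3 there went with the other number (r = 0.486 and 0.606), the exchange seen in the deposited table. In HE, r was 0.694 for number 2, and induced arrays 1 and 3 went with each other's number (r = 0.449 and 0.387). In myeloid progenitors the highest r was 0.263. The main fit used no pairing.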

Additional observations from a re-analysis of the deposited data

Results flagged for a closer look

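The response to Dox differed between stages, by the interaction term of the limma fit, in 10 of the 31 genes, where 6.31% of all genes were called in at least 1 of the 4 terms. These terms cannot tell stage apart from when Dox was given. Between HE2 and HE, the difference in log2 change was -3.72 ± 0.65 (SE) for Ccl6, -3.44 ± 0.71 for Ccl9, -2.52 ± 0.45 for Ccl3 and -1.76 ± 0.44 for Cxcr2. In the same pair of stages it was 2.01 ± 0.39 for Cxcl1, 1.48 ± 0.27 for Cxcl17 and 1.23 ± 0.29 for Cx3cl1. The adjusted P was 0.0507 for Cx3cl1 and 0.0693 for Cxcr2, and at most 0.0246 for the other 5. Between myeloid progenitors and HE it was 2.32 ± 0.39 for Cxcl1, 2.30 ± 0.50 for Ccl17, 2.04 ± 0.45 for Cxcl10, 1.76 ± 0.29 for Cx3cl1 and 1.28 ± 0.27 for Cxcl17. Between myeloid progenitors and progenitors it was 2.31 ± 0.54 for Ccl4 and 2.11 ± 0.50 for Cxcl10. Between progenitors and HE2, 0 of the 31 were called (limma), with 4 at an unadjusted P under 0.05, where 0.645% of all genes were. With 1 array left out, Cx3cl1 (7 of 12 fits) and Cxcr2 (10 of 12) were no longer called between HE2 and HE, nor Cxcl10 (7 of 10) and Ccl4 (6 of 10) between myeloid progenitors and progenitors, nor Cxcl10 between myeloid progenitors and HE in 1 of 12. The other called values were kept in every such fit. In uninduced myeloid progenitors no array measured Cxcl17 well above background, so its value there rests on a bound. Ccl3 (5.01 to 5.81), Ccl9 (5.58 to 7.06) and Cxcr2 (5.21 to 5.43) were dim in uninduced HE. A fall as large as that in HE2 could not have been fully measured there, so their differences between HE2 and HE carry the same limit. Ccl17 was already at 7.35 to 8.33 in uninduced myeloid progenitors, level with induced HE, so its difference between myeloid progenitors and HE is limited in the same way. The terms that contain HE share its arrays, so the values for Cxcl1, Cxcl17 and Cx3cl1 in 2 terms are not independent.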

How the results depend on the processing

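No change of a gene called with Dox or between stages turned its direction under any alternative run, and of the values for single genes, 72 per alternative, most calls were kept. Those 72 values include the Dox changes of Cxcl12, which were not called in the main fit and could not be lost. Calls were lost most often when the fit held only the groups compared (24), with log2 processed signal minus the 75th percentile (21) and with the slide as a block (14). The cause was not tested, other than that the first of these leaves fewer arrays to estimate the spread. The 75th-percentile scaling also moved the median change of all genes by -0.18 in progenitors and -0.10 in myeloid progenitors. Cx3cl1 and Ccl17 in HE, Cx3cl1, Ccl17, Ccl6, Ccl9 and Cxcr3 in HE2, and Cxcl1 in myeloid progenitors were called in all 21 alternatives run for them. Cxcl12 in HE passed with an offset of 50 (-1.77), the deposited log2 values (-1.79), the mean over probes (-1.52), both other call thresholds, the additional progenitor array, and the replicate block with either set of numbers.

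With an adjusted P of at most 0.05 in place of the unadjusted P, 6 of the 31 genes were called in HE. With 2-fold and no P, 7 were called in HE, 11 in progenitors, 17 from progenitors to myeloid progenitors and 18 in a stage difference. In progenitors the count with Dox was 1 under the 75th-percentile scaling, 0 with only the groups compared and 0 with the slide as a block. From progenitors to myeloid progenitors it was 5 and 3 under the last 2 of these. All other alternatives left the counts within 1.5 times. With each array left out in turn, the counts ranged from 2 to 3 in HE, 8 to 11 in HE2, 0 to 4 in progenitors and 4 to 8 in myeloid progenitors. They ranged from 8 to 9 from HE to HE2, 6 to 11 from HE2 to progenitors, 6 to 9 from progenitors to myeloid progenitors and 9 to 11 in a stage difference. Among stage calls without Dox, an array left out most often lost Ccl17, Ccl5 and Ccr8 (4 of 5 fits each) and Ccl2 and Cxcl14 (3 of 5) from progenitors to myeloid progenitors, Ccl4 (4 of 5) and Ccl2 (3 of 5) from HE2 to progenitors, and Cx3cr1 (3 of 6) from HE to HE2. A progenitor group left with 1 array is assumed to vary like the others.

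With the replicate number as a block, the counts were 3 in HE, 11 in HE2, 4 in progenitors, 7 in myeloid progenitors, 9, 11 and 9 in the stage comparisons in order, and 9 in a stage difference. The same block with the numbers of the deposited table, an alternative chosen after seeing the data, gave 8 in a stage difference and the same counts otherwise. In the HE to HE2 comparison, where same-numbered arrays deviated together, the block changed no call. Genes dim on the arrays, such as Cxcr4 and Ccr1, are limited by signal over background.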
